A study of Homo sapiens with 13 samples.

Results

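Protocadherins are the genes whose symbol begins with PCDH, and 78 of the 61541 human features in the count tables carried such a symbol together with an Ensembl identifier. Of these, 53 were protein-coding members of the 3 gene clusters on chromosome 5, with 15 in PCDHA, 16 in PCDHB and 22 in PCDHG. A further 13 were protein-coding genes outside the clusters, 6 were pseudogenes inside the clusters, and 6 were RNA genes or pseudogenes elsewhere. All libraries came from RUES2, a human embryonic stem cell line, carrying a GFP::SMAD4 fusion that reports the location of the signal transducer SMAD4, and all cells were grown in mTeSR medium. The time series held 7 libraries from cells given 100 ng/mL BMP4 and 5 µM IWP2, a blocker of Wnt secretion, together with ROCK inhibitor, sampled as 2 libraries at the start (0 h) and as single libraries after 4, 12, 20, 28 and 42 h. Where a gene is followed through the series, its values at the later times stand in this order. The 0 h libraries bear the same treatment label as the later ones. The dose response held 6 libraries at 5 h, of which 5 had BMP4, IWP2 and the BMP receptor inhibitor LDN-193189 (LDN) at 0, 10, 30, 100 or 300 nM, and 1 was left in medium alone (untreated). RNA of the time series was depleted of ribosomal RNA and RNA of the dose response was selected for polyA, with different extraction kits, so levels were compared only within an experiment unless stated.

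Protocadherins form the largest family within the cadherins, cell surface proteins that bind the same protein on the neighbouring cell. In the PCDHA and PCDHG clusters each gene has its own promoter and its own large variable exon, which encodes the extracellular part, and this exon is spliced to constant exons shared by the whole cluster. PCDHB genes have no shared constant exons. In neurons each cell switches on a few promoters of each cluster, with CTCF and cohesin joining a promoter to a distant enhancer, so that each neuron carries its own set of surface proteins. The last genes of the PCDHA and PCDHG clusters, named AC1, AC2, GC3, GC4 and GC5, form the C-type, whose sequences resemble each other more than their neighbours. The non-clustered members lie singly in the genome and act in cell adhesion, cell sorting and neural wiring.

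The clusters lie side by side on chromosome 5 (GRCh38), with PCDHA at chr5:140786136-141012347, PCDHB at chr5:141051374-141249365 and PCDHG at chr5:141330514-141512977, all on the plus strand. In the GENCODE 44 annotation a median of 46.6% of the exonic bases of a PCDHA member, and 43.8% of those of a PCDHG member, also belonged to other protocadherins. The division of reads in these shared exons among members was therefore an estimate of the authors' counting tool, and members of the same cluster are not independent of each other. No PCDHB member shared exonic bases with another protocadherin. Strand of the counting was not given in the sources used here, so reads of a member and of an antisense gene over it, such as PCDHB1-AS1 over PCDHB2, cannot be told apart.

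The promoters of the clustered genes are shown because their members are turned on and off promoter by promoter. RefSeq promoters (GRCh38.p14, 250 bases before to 50 bases after the start) were found for 47 of the 53 clustered members. The letters CGCT, found in the core of an element known from many of these promoters, are in capitals in the following 50-base stretches. All stretches are on the plus strand and upstream of the gene. A match to these letters alone does not identify the element. They come from the highly expressed members PCDHA10, PCDHA12, PCDHA4, PCDHB2, PCDHB15 and PCDHGB4, from the members PCDHA5, PCDHB12 and PCDHGA5, which fell with time, and from PCDHGC4, which fell as LDN increased.
PCDHA4, chr5:140806971-140807020: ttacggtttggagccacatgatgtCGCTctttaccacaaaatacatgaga
PCDHA10, chr5:140855833-140855882: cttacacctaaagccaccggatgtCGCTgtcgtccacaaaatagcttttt
PCDHA12, chr5:140875236-140875285: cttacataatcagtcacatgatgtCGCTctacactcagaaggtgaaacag
PCDHA5, chr5:140821534-140821583: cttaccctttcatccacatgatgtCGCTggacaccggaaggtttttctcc
PCDHB2, chr5:141094536-141094585: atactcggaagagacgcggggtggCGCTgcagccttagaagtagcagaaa
PCDHB15, chr5:141245306-141245355: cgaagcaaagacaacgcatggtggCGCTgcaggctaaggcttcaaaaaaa
PCDHB12, chr5:141208635-141208684: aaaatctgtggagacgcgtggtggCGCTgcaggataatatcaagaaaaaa
PCDHGB4, chr5:141387636-141387685: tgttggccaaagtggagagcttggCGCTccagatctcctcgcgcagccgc
PCDHGA5, chr5:141364099-141364148: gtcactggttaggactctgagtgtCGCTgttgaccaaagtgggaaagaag
PCDHGC4, chr5:141484944-141484993: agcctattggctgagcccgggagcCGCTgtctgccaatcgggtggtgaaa

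The printed PCDHA stretches carried nearly the same letters around the core (ATGATGTCGCT in PCDHA4, PCDHA12 and PCDHA5), and the PCDHB stretches shared GGTGGCGCTGCAG. The stretch of PCDHA10 differed in part. Of these PCDHA members only PCDHA5 fell with time, so the falling members of PCDHA were not compared as a set. CGCT on the gene's own strand, with its first base between 110 and 30 bases before the start, was found in 43 of the 47 clustered promoters (91.5%), in 3 of 10 promoters of non-clustered members (30.0%) and in 23.8% of the 27305 promoters of all genes. This window was set after the positions had been seen. The clustered promoters without it were those of PCDHA9, PCDHB5, PCDHB8 and PCDHGB2. Of these members PCDHA9 fell with time, PCDHB5 and PCDHB8 rose, and PCDHGB2 was not called. Anywhere in the promoter on either strand, CGCT was found in 97.9% of clustered promoters, in 9 of 10 non-clustered ones (90%) and in 69.3% of all. The longer TGNCGCT contains CGCT and was also chosen after seeing the sequences. It was found in 11 of 13 PCDHA, 13 of 14 PCDHB and 8 of 20 PCDHG promoters. Of the non-clustered promoters 3 of 10 (30%) held it, and of all promoters 10.9%. Of the stretches printed above, only that of PCDHGC4 lacks TGNCGCT at its capitals. The TATA box letters TATAAA occurred in 6 of the 47 and in 12.0% of all. These matches are letters in a window and not measured binding sites.

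Libraries of the time series held 37957385 to 71333471 counts and those of the dose response 15600931 to 33989998, with the untreated library the smallest. The protocadherins took 0.0597 to 0.103% of the counts in the time series and 0.0555 to 0.0591% in the dose response. The mitochondrial share of counts was 7.60% in the first 0 h library and 7.89% without treatment, where the other libraries lay between 2.01 and 4.49%. The summed level of 7 pluripotency markers went from 5978 and 6421 CPM (counts scaled by the library total) at 0 h to 3069 CPM at 42 h, and that of 8 amnion markers went from 25.4 and 28.9 to 6180 CPM. Most of the pluripotency sum came from LIN28A (3017 and 2966 to 1806 CPM) and POU5F1 (1003 and 1721 to 1145 CPM). NANOG went from 146 and 116 to 1.08 CPM and SOX2 from 389 and 375 to 11.6 CPM. Of these 7 markers 5 fell with time and 2 were not called. The 8 neural markers summed to 428 to 743 CPM in the time series and 456 to 615 CPM in the dose response, most of it from NES (273 to 460 CPM over time) and TUBB3 (66.8 to 323 CPM), while SOX1 and PAX6 were at 0.0817 to 1.26 CPM over time. Of the 6 tested, 3 fell with time (TUBB3, MAP2 and PAX6) and 0 rose. The sum of 6 endothelial markers lay between 10.6 CPM (42 h) and 113 CPM (12 h) in the time series and between 67 and 78.8 CPM in the dose response. Most of it came from KDR (6.06 to 96.4 CPM over time) and TEK (1.39 to 14.2 CPM), with PECAM1 and CDH5 at no more than 0.294 CPM. Of the 4 tested VWF rose with time and TEK and ERG fell. The part of such markers in the results was not tested. Fewer cells expressing a gene and less RNA of it per cell cannot be told apart in these bulk libraries.

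At 0 h every cluster was expressed, and a few members gave a large share of the level. Summed FPKM, a level scaled by gene length and library size, were 29.5 ± 0.431 for PCDHA, 40.1 ± 4.8 for PCDHB and 33.4 ± 3.26 for PCDHG (SD, n = 2). The 3 members highest on average in the time series were PCDHA11, PCDHA12 and PCDHA10, which gave 51.7 and 50.3% of PCDHA FPKM in the 0 h libraries. PCDHB2, PCDHB5 and PCDHB15 gave 67.4 and 71.1% of PCDHB, and PCDHGB7, PCDHGB4 and PCDHGC3 gave 39.6 and 42.3% of PCDHG. The highest clustered member was PCDHB2, at 14.7 and 14.3 FPKM, followed by PCDHB5 at 9.45 and 7.36 FPKM, with no overlap between these pairs of values. PCDHA11 at 5.90 and 5.80 FPKM and PCDHA12 at 5.66 and 5.45 FPKM came next, while PCDHGB7 (5.15 and 4.41), PCDHGB4 (4.74 and 5.23) and PCDHB15 (5.12 and 4.42) overlapped one another. The lowest were PCDHB1 at 0.040 and 0.030 FPKM and PCDHB7 at 0.11 and 0.050 FPKM. Of the non-clustered members, PCDH1 stood far above all others at 107 and 112 FPKM.

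**Figure D1:**
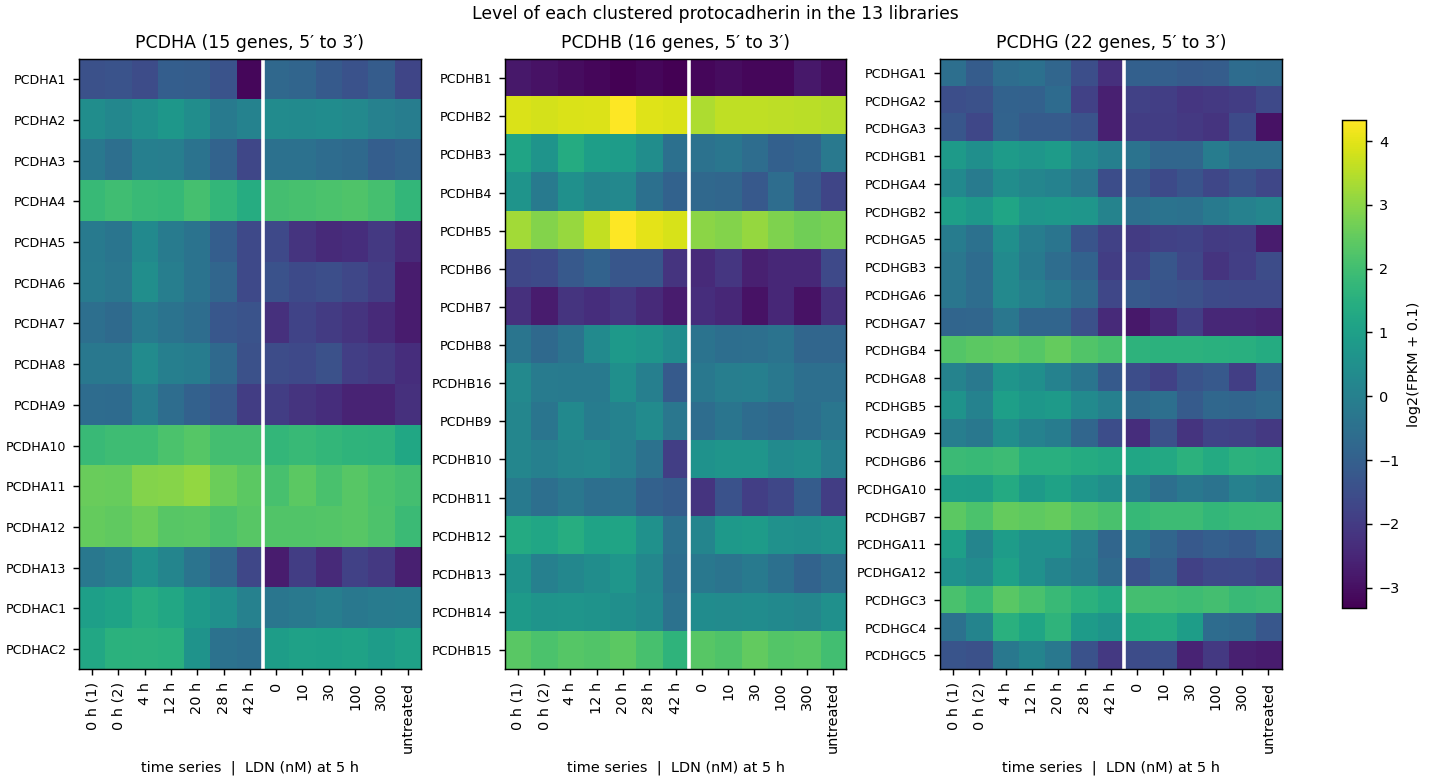
Level of each clustered protocadherin as log2(FPKM + 0.1), by colour, in the 7 time-series libraries (left of the white line; hours, with 0 h as 2 libraries) and the 6 dose-response libraries (right; nM LDN, and untreated), with genes in chromosomal order. The same few rows are bright in all libraries, PCDHB2 and PCDHB5 brightest, and most of the darker rows darken further at 42 h.

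The same members were high in the polyA libraries. Of the 5 members with the highest FPKM in the 0 h libraries, 5 were also among the highest 5 of the untreated library for PCDHA, 4 for PCDHB and 4 for PCDHG. The weaker clustered members stood relatively lower in the polyA libraries. The ratio of untreated CPM to mean 0 h CPM had a median of 0.831 over the 9 highest clustered members. Its median was 0.453 over the other 42 clustered members tested and 0.891 over all 18088 features tested. PCDHA13, for example, had 1.69 and 2.07 CPM at 0 h and 0.128 CPM, or 2 counts, untreated. Over the 10 non-clustered members tested the median was 0.521, so a low ratio was not particular to the weaker clustered members. The experiments differed in RNA selection, extraction kit and time in culture, which cannot be told apart, and the ratio was not tested.

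The first question was which protocadherins changed as the cells left pluripotency over 42 h of BMP4. Of the 51 clustered genes tested, 43 had a negative fitted change, 16 of them past the test, whereas several non-clustered genes rose by more than any clustered one. Of the 65 members with a mean of at least 0.5 CPM, 6 rose with hours and 18 fell (edgeR quasi-likelihood test of a linear trend, adjusted p under 0.05), and 41 passed neither. Over all 18088 features tested, 18.7% rose and 16.4% fell (35.2% in either direction), so that the share of members that rose (9.23%) lay below the background and the share that fell (27.7%) above it. The median fitted log2 change over 42 h was -0.76 over the members and -0.003 over all features. By class, 0 of 15 PCDHA members rose and 7 fell, 2 of 14 PCDHB rose and 5 fell, 0 of 22 PCDHG rose and 4 fell, and 4 of 10 non-clustered members rose and 1 fell. With library totals in place of the scaling factors the median of all features shifted to -0.28. Then 3 members rose (4.62%, against 12.5% of all features) and 24 fell (36.9%, against 24.8%).

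**Figure D2:**
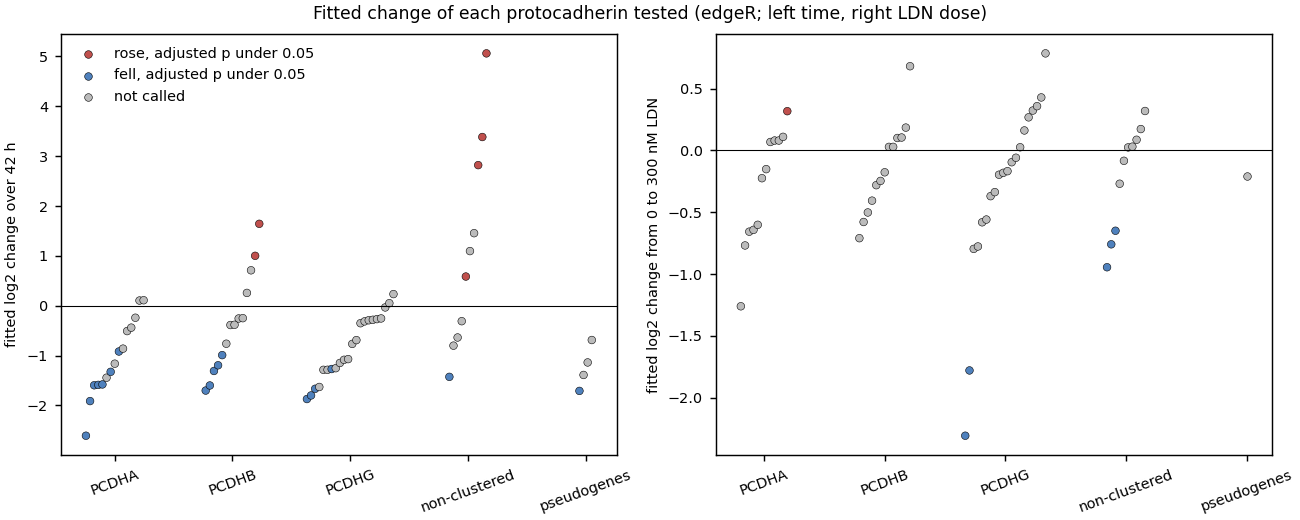
Fitted log2 change of each protocadherin tested, over 42 h of BMP4 with IWP2 (left) and from 0 to 300 nM LDN at 5 h (right). Each point is a gene, sorted by its change within its class, red where it rose, blue where it fell and grey where the adjusted p was not under 0.05. In the left panel the points of the 3 clusters lie mostly below 0, down to -2.61, and the non-clustered genes reach 5.06.

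The falling trends depended most on the later times. Without the 42 h library 2 members fell with time (3.08%, against 8.55% of all features) and without the 28 h library 8 (12.3%, against 12.5%), so that the share that fell was then below the background or equal to it. Without the first 0 h library 11 fell (16.9%, against 12.3%) and without the second 27 (41.5%, against 19.6%). Rising members numbered 2 without the second 0 h library (3.08%, against 20.4% of all features). They numbered 2 without the 4 h library (3.08%, against 14.3%) and 3 without the 28 h library (4.62%, against 15%). With log time in place of hours 1 member fell (1.54%, against 7.62% of all features) and 5 rose (7.69%, against 12.1%), both shares lying below the background. Of the 24 calls, 17 were lost without the 42 h library, 15 without 28 h, 1 without 20 h, 7 without 12 h, 10 without 4 h, 9 without the first 0 h library and 4 without the second. The calls of PCDH17, PCDH10 and PCDHAC2 held in all 14 alternatives. Times after 0 h were single libraries, p-values therefore measure scatter about the line, and the labels do not say whether the 0 h libraries came from separate cultures.

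In each cluster the sum of the strongly expressed members at 42 h was nearer to its 0 h level than the sum of the others. The 3 highest PCDHA members summed to 15.1 and 15.0 FPKM at 0 h and 14.2 FPKM at 42 h, and the other 12 went from 14.1 and 14.8 to 6.65 FPKM, which is 0.945-fold and 0.460-fold of the 0 h means. In CPM each of these 3 was below both 0 h values at 42 h. PCDHA11 went from 23.8 and 23.7 to 13.1 CPM, PCDHA10 from 29.2 and 27.0 to 25.1, and PCDHA12 from 18.1 and 16.8 to 16.3. PCDHA4, also highly expressed, went from 16.15 and 14.8 to 8.89 CPM. The 3 highest PCDHB members had 29.3 and 26.1 FPKM at 0 h and 32.2 at 42 h, with the other 13 going from 14.2 and 10.6 to 5.88 FPKM (1.16-fold and 0.475-fold). For PCDHG the highest 3 went from 14.1 and 13.1 to 11 FPKM and the other 19 from 21.6 and 18 to 10.7 FPKM (0.804-fold and 0.542-fold). The share of FPKM held by the highest 3 was thereby 68.1% in PCDHA, 84.5% in PCDHB and 50.6% in PCDHG at 42 h, in each cluster above both 0 h values.

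**Figure D3:**
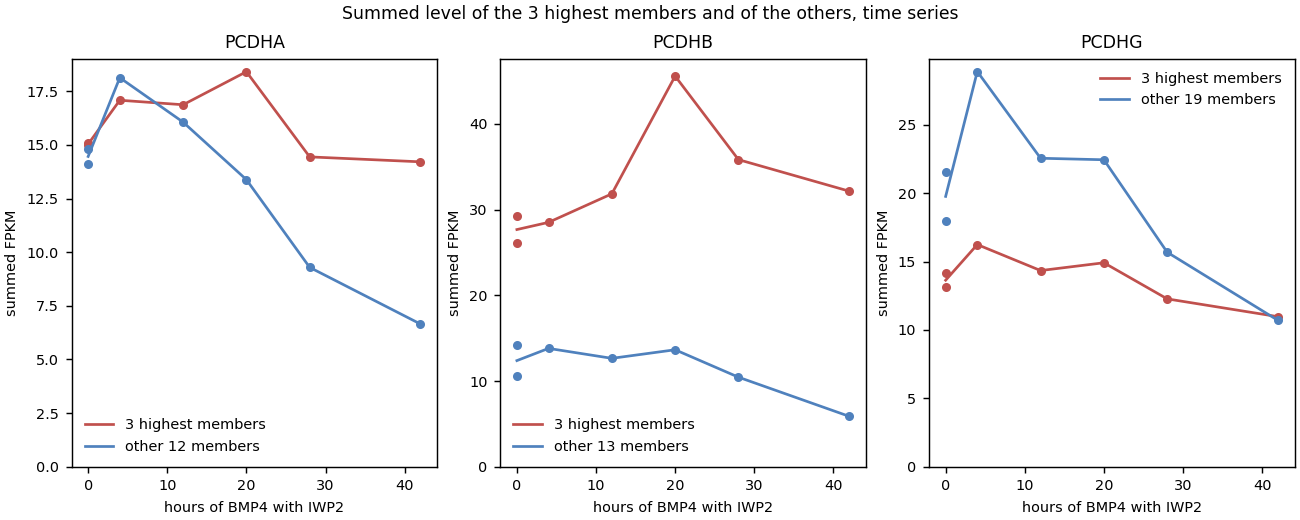
Summed FPKM of the 3 highest members (red) and of the other members (blue) of each cluster against hours of BMP4 with IWP2, with points for libraries and lines through the mean of both 0 h libraries. At 42 h the blue sums are at 6.65, 5.88 and 10.7 FPKM for PCDHA, PCDHB and PCDHG, below both 0 h values, and in PCDHG blue peaks at 28.9 FPKM at 4 h.

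Of the 42 other members tested, 16 fell (38.1%, against 16.4% of all features) and 1 (PCDHB8) rose (2.38%, against 18.7%). Their median log2 change was -1.12. Of the 9 highest members 0 fell and 1 (PCDHB5) rose (11.1%), with a median of 0.10. The difference between these sets was not tested. The division used the mean level over the time series, 42 h included, which favours members that kept their level among the highest. Divided by their level in the separate dose-response libraries, PCDHA4 took the place of PCDHA10 and the other 8 were the same. Then 0 of the 9 highest fell and 1 rose, and 16 of the 42 others fell and 1 rose. The PCDHA contrast was smaller with this division. Its highest 3 went from a 0 h mean of 15.1 to 12.8 FPKM at 42 h, and the other 12 from 14.4 to 8.09 FPKM. The part that the division of reads plays in this difference, among shared exons in PCDHA and PCDHG and among paralogs in PCDHB, was not tested. The course was not steady from the start. At 4 h, 32 of the 44 others lay above both 0 h libraries in FPKM (72.7%, against 42.9% of all features) and 3 below both (24.6% of all features), the former including 17 of 19 in PCDHG, whose sum reached 28.9 FPKM. Of the 9 highest members 7 lay above both at 4 h (77.8%) and 0 below both. At 42 h 40 of the 44 others lay below both (90.9%, against 53.8% of all features) and 2 above both (32% of all features), and of the 9 highest 6 lay below both (66.7%) and 2 above both.

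Summed over all members, each cluster had fewer counts per library total at 42 h than at 0 h. PCDHA summed to 130 and 122 CPM at 0 h and then 138, 125, 114, 93.1 and 77.4 CPM at the later times. PCDHG summed to 129 and 117 CPM at 0 h, 161 at 4 h and 81.4 at 42 h. PCDHB had 123 and 100.5 CPM at 0 h, 141 at 20 h and 90.8 at 42 h. Division of reads among the members summed does not enter these sums, but pseudogenes are left out of them, and PCDHA14 lies within exons of PCDHA10. The log2 ratio of 42 h over 0 h was -0.70 for PCDHA, -0.30 for PCDHB and -0.59 for PCDHG on library totals, and -0.43, -0.03 and -0.32 with the scaling factors of the fit.

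Within PCDHA the largest fitted linear fall was that of PCDHAC2 (chr5:140966470-141012347), a C-type member known in neurons for guiding the spacing of serotonergic axons. It had 11.7 and 10.2 CPM at 0 h and then 10.3, 6.83, 4.49, 2.20 and 1.73 CPM at the later times. It lay within the 0 h pair at 4 h and below both at every later time, with a fitted log2 change of -2.61 ± 0.29 (SE; edgeR adjusted p = 0.000416). The other C-type member, PCDHAC1, fell by 0.92 on the log2 scale, from 8.72 and 9.83 CPM to 4.20 CPM at 42 h.

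PCDHA13, PCDHA5 and PCDHA9 are ordinary variable members of low level. PCDHA13 had 1.69 and 2.07 CPM at 0 h and then 3.18, 2.26, 1.45, 1.05 and 0.441 CPM at the later times. It was above the 0 h pair at 4 h and below it from 20 h on, with a fitted log2 change of -1.91 ± 0.48 (adjusted p = 0.0170). PCDHA5 (-1.60) and PCDHA9 (-1.58) followed the same course, with their highest values at 4 h, 4.57 and 5.63 CPM, and their lowest at 42 h, 0.866 and 1.03 CPM. PCDHA6 and PCDHA3 also fell, by 1.59 and 1.33. Among the strong members the fitted changes were 0.10 for PCDHA10, 0.11 for PCDHA12 and -0.51 for PCDHA11, none of which passed the test. Calls of PCDHA3, PCDHA5, PCDHA6, PCDHA9, PCDHA13 and PCDHAC1 were lost without the 42 h library.

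The PCDHB genes, each with its whole coding sequence to itself, went both ways. PCDHB12 had 6.32 and 5.34 CPM at 0 h and then 6.20, 5.00, 4.56, 3.08 and 1.42 CPM at the later times, all values from 12 h on lying below the 0 h pair. Its fitted change was -1.60 ± 0.31 (adjusted p = 0.00573). PCDHB4 (-1.31), PCDHB14 (-0.99), PCDHB10 (-1.70) and PCDHB3 (-1.20) fell as well, and these 5 calls were lost without the 42 h library.
Against them, PCDHB5 (chr5:141135206-141138615) had 22.9 and 17.7 CPM at 0 h and then 20.2, 25.2, 35.0, 34.0 and 28.0 CPM at the later times. From 12 h on every value exceeded both 0 h libraries, and the fitted change was 1.0 ± 0.27 (adjusted p = 0.0205). PCDHB8, a weakly expressed neighbour, had 1.69 and 1.28 CPM at 0 h and then 1.63, 2.89, 4.11, 3.69 and 3.01 CPM at the later times. It too was above both 0 h values from 12 h on, with a fitted change of 1.64 ± 0.46 (adjusted p = 0.0255). PCDHB genes are close paralogs, and reads that match several of them are placed by estimate. With library totals neither rise passed the test, and both calls were lost without the second 0 h, the 4 h or the 28 h library. The strongest member, PCDHB2, stayed between 34.5 and 47.1 CPM throughout.

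In PCDHG the members that fell were all weakly expressed. PCDHGA5 had 2.90 and 2.47 CPM at 0 h and then 4.88, 3.26, 2.51, 1.29 and 0.719 CPM at the later times. After its high value at 4 h it sank below the 0 h pair by 28 h, and its fitted change was -1.87 ± 0.50 (adjusted p = 0.0215). PCDHGA12 fell by 1.27, PCDHGB3 by 1.80 and PCDHGA1 by 1.67, and the pseudogene PCDHGB9P by 1.71. All 5 calls were lost without the 42 h library. The strong members PCDHGB7 (15.2 to 19.8 CPM), PCDHGB4 (18.9 to 25.5 CPM) and PCDHGC3 (9.84 to 18.6 CPM) did not pass the test, with fitted changes of 0.23, 0.05 and -0.26.

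A straight line describes rises and falls but misses genes that peak between the ends, and the quadratic term of a second fit addressed these. The term was below 0, meaning higher in the middle, for 59 of 65 members and above 0 for 6. For all features the share below 0 was not computed, so these counts have no background. The median term was -1.97 over the members and -0.077 over all features. A negative term passed the test for 6 of 65 members (9.23%, near the 7.84% of all features) and a positive one for 0, against 2.73% of all features (10.6% in either direction). At an unadjusted p under 0.05 there were 23 members in either direction. The share of all features at that threshold was not computed, so this count cannot be set against the background. DESeq2 called 1 member with a positive term. The 6 members called were PCDHA1, PCDHB10, PCDHGA2, PCDHGA3, PCDHGC4 and PCDH19. Their number was 0 without the 20 h or without the 42 h library (1.96 and 0.813% of all features), 3 without the first and 3 without the second 0 h library (4.62%, against 5.5 and 5.68%), and 11 without the 4 h library (16.9%, against 10.8%).
PCDHGC4 (chr5:141484997-141512975) was the clearest among the C-type. This isoform differs from the other members of its cluster in not reaching the cell surface alone, and it is required for the survival of many neurons. It had 2.37 and 3.25 CPM at 0 h and then 6.80, 8.10, 7.34, 4.16 and 1.99 CPM at the later times. Values at 4 to 28 h were above both 0 h libraries and that at 42 h below both, and the quadratic coefficient was -5.82 ± 1.29 (adjusted p = 0.0220). The call was lost without the second 0 h, the 12 h, the 20 h or the 42 h library and in the FPKM table, where the 42 h level of 1.45 FPKM lay above the 0.63 and 0.99 FPKM at 0 h. Its neighbour PCDHGC5 (chr5:141489081-141512975) had 0.738 and 0.785 CPM at 0 h and then 2.80, 2.85, 2.23, 1.07 and 0.539 CPM at the later times, likewise above both 0 h libraries from 4 to 28 h and below both at 42 h, but highest at 4 and 12 h, and its quadratic term did not pass the test.
PCDHA1 had 0.659 and 0.715 CPM at 0 h and 0.596 to 0.950 CPM up to 28 h, and then 0.0163 CPM, or 1 count, at 42 h, and the call of its quadratic term of -9.66 was lost without the 20 h or the 42 h library. PCDHGA2 peaked at 2.39 CPM at 20 h and ended at 0.278 CPM, and PCDHGA3 and PCDHB10 ended at 0.147 and 0.507 CPM.

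The 3 largest fitted linear changes of the family were those of the non-clustered members PCDH9, PCDH17 and PCDH10. PCDH17 (chr13:57631744-57729311, plus strand), which recruits actin regulators at cell contacts, had 2.27 and 2.19 CPM at 0 h and then 2.38, 3.94, 5.51, 11.6 and 16.4 CPM at the later times. Every later library was above both 0 h libraries and each above the one before, a 7.35-fold rise by 42 h, with a fitted log2 change of 3.38 ± 0.26 (adjusted p = 8.04e-05). PCDH10 (chr4:133149294-133208606), which binds the WAVE complex that branches actin, had 6.11 and 5.58 CPM at 0 h and then 8.69, 16.3, 21.2, 17.8 and 37.7 CPM at the later times. It was above the 0 h pair from 4 h on, 6.45-fold at 42 h, with a fitted change of 2.82 ± 0.32 (adjusted p = 0.000453).

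PCDH9 (chr13:66302834-67230445, minus strand), a member with large brain-expressed isoforms, moved late and abruptly. It had 3.95 and 3.22 CPM at 0 h and then 2.05, 4.23, 44.7, 57.6 and 12.6 CPM at the later times. The 20 and 28 h libraries stood apart from the rest, the highest 16.1-fold above the 0 h mean. At 42 h PCDH9 was 3.50-fold of its 0 h mean. The fitted log2 change of 5.06 ± 1.63 (edgeR adjusted p = 0.0418) exceeds that difference, and a straight line does not describe such a course. Its call was lost without either 0 h library and without the 4, 12 or 28 h library. The 4 genes named as antisense to it, PCDH9-AS1 to PCDH9-AS4, were at 0 counts in all 13 libraries, where 3 counts correspond to 0.0421 to 0.192 CPM depending on the library.

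PCDH1 (chr5:141853090-141879246, minus strand), an epithelial adhesion gene downstream of PCDHG on the same chromosome, was the highest protocadherin in all 13 libraries and fell. It had 395 and 415 CPM at 0 h and then 440, 342, 302, 230 and 116 CPM at the later times. From 12 h on each value was below both 0 h libraries and below the one before, and the fitted change was -1.43 ± 0.20 (adjusted p = 0.00136), a call lost only with log time (adjusted p = 0.0667). PCDH11X (chrX:91779261-92623230) had 55.2 and 44.6 CPM at 0 h and between 46.4 and 63.9 CPM later, with the 28 and 42 h libraries above the 0 h pair. Its fitted change of 0.59 ± 0.19 (adjusted p = 0.0438) held in 1 of 14 alternatives, and PCDH11X shares most of its sequence with a near-identical copy on the Y chromosome, so its counts are uncertain.

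**Figure D4:**
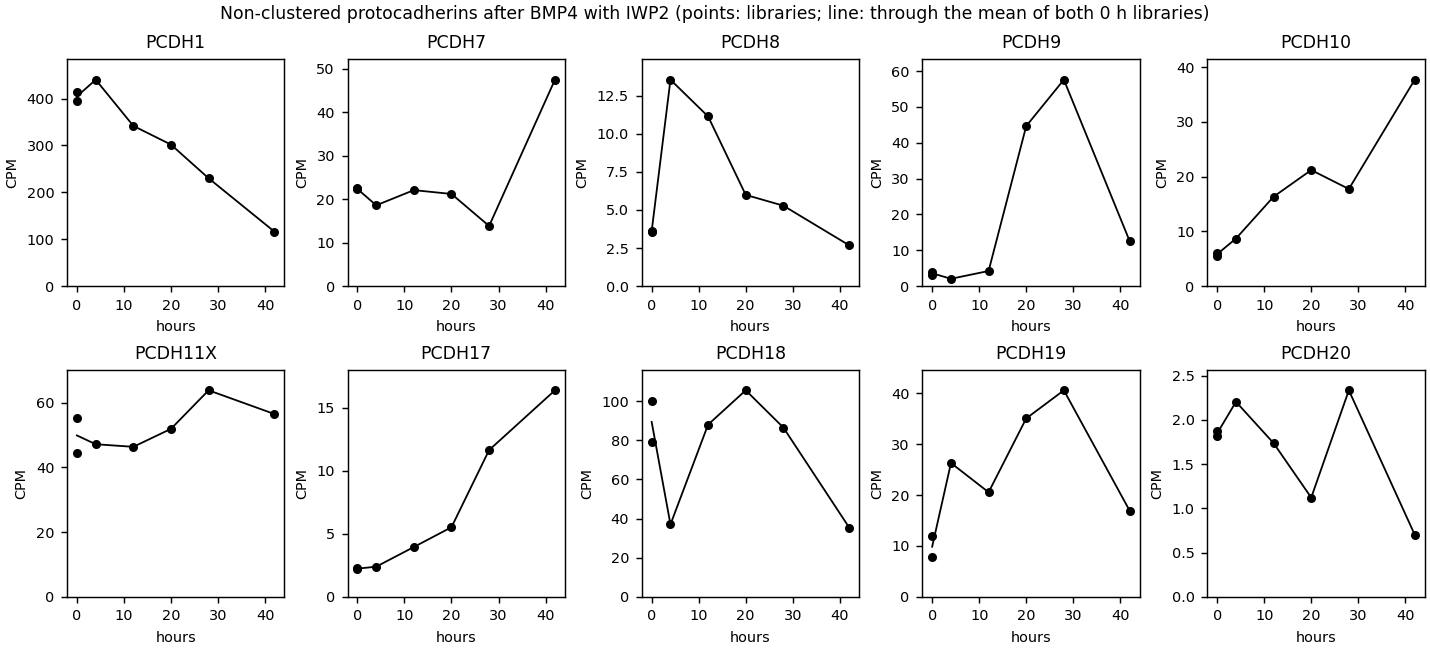
Level in CPM of the 10 non-clustered protocadherins tested against hours of BMP4 with IWP2, each on its own axis starting at 0, with points for libraries and a line through the mean of both 0 h libraries. PCDH17 and PCDH10 climb to 16.4 and 37.7 CPM, PCDH1 sinks from about 405 to 116 CPM, PCDH8 peaks at 4 h and PCDH9 at 28 h.

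The remaining non-clustered members did not follow a line. PCDH19 (chrX:100291644-100410273), which acts with N-cadherin and is known from an X-linked epilepsy, had 11.9 and 7.74 CPM at 0 h and then 26.3, 20.5, 35.1, 40.6 and 16.9 CPM at the later times. All later values exceeded both 0 h libraries, and the quadratic coefficient was -5.27 ± 1.32 (adjusted p = 0.0357), a call lost without either 0 h library and without the 20, 28 or 42 h library. PCDH8 (chr13:52842889-52848641), known as paraxial protocadherin for its part in cell movements of the gastrula, had 3.64 and 3.56 CPM at 0 h and then 13.6, 11.1, 5.99, 5.28 and 2.68 CPM at the later times. It was 3.77-fold above the 0 h mean at 4 h and below both 0 h values only at 42 h, and neither fit called it (adjusted p = 0.484 for the line and 0.195 for the curvature).
PCDH18 had 99.9 and 78.9 CPM at 0 h and then 37.0, 88.1, 106, 86.6 and 35.4 CPM at the later times. The 4 and 42 h libraries were low and the others lay within or near the 0 h pair, with adjusted p = 0.716 for the line. PCDH7, which binds a protein phosphatase, had 22.5 and 22.2 CPM at 0 h and then 18.6, 22.1, 21.2, 13.8 and 47.5 CPM at the later times, so that only the last library was above the 0 h pair (adjusted p = 0.0769). PCDH20 stayed between 0.703 and 2.34 CPM, and its exons overlap another annotated gene on the same strand. PCDH12, an endothelial protocadherin, and PCDH15, of the inner ear hair cell, were too low to test, with at most 0.788 and 0.316 CPM in the time series.

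The dose response asked which of these genes followed the strength of BMP signalling early on, at 5 h. Few members did. Of 56 tested, 1 rose with LDN (1.79%, against 9.65% of all 16464 features), 5 fell (8.93%, against 9.79%), and 50 passed neither (19.4% of all features passed in either direction). The share that fell was thus close to the background, and the median fitted log2 change from 0 to 300 nM was -0.17 over the members and -0.003 over all features. Each dose was a single library. With dose in nM in place of dose steps 0 members rose and 0 fell (edgeR, against 0.486 and 1.96% of all features), and on FPKM values 0 rose and 1 fell (against 2.2 and 3.84%). At an unadjusted p under 0.05 there were 13 members in either direction, a count for which the share of all features was not computed.

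Both late C-type members of PCDHG were among those that fell as LDN increased. PCDHGC4 had 6.23, 3.97, 3.90, 1.96 and 1.84 CPM from 0 to 300 nM, and 1.47 CPM in untreated cells. The values dropped at each dose and ended near the untreated level, with a fitted log2 change of -1.78 ± 0.25 (adjusted p = 0.000272). In FPKM, where gene length enters, the 10 nM library was at 2.51, slightly above the 2.41 at 0 nM. PCDHGC5 had 1.08, 1.0, 0.246, 0.354 and 0.271 CPM from 0 to 300 nM, and 0.128 CPM untreated. It was higher at the 2 lowest doses than at the others and rested on 8 to 34 counts per library, with a fitted change of -2.31 ± 0.58 (adjusted p = 0.0145), a call lost without the 0 nM library.
The sum over all PCDHG members, which includes the reads of their shared exons, went from 82.3 CPM at 0 nM to 72.9 CPM at 300 nM and was 76.7 CPM untreated. PCDHGC3, the first C-type member of the cluster, had a fitted change of -0.34 (adjusted p = 0.0987).

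Among the non-clustered genes PCDH8, PCDH19 and PCDH10 fell with LDN. PCDH8 had 7.38, 6.86, 6.09, 4.28 and 4.01 CPM from 0 to 300 nM and 1.86 CPM untreated, and all 5 libraries with BMP4 stood above the untreated one. Its fitted change was -0.95 ± 0.17 (adjusted p = 0.00179). PCDH19 had 9.50, 8.30, 7.47, 6.14 and 5.61 CPM and 4.74 CPM untreated, again dropping at every dose, with a change of -0.76 ± 0.13 (adjusted p = 0.00157). PCDH10 had 8.21, 8.18, 7.44, 5.76 and 5.46 CPM and 5.96 CPM untreated, so that the 2 highest doses were below the untreated library. Its change was -0.65 ± 0.15 (adjusted p = 0.00984) and its call was lost without the 300 nM library.
The only member that rose was PCDHA11, with 15.8, 18.5, 18.3, 20.4 and 19.6 CPM and 18.1 CPM untreated. The 0 nM library was the lowest of the 6, and the change of 0.32 ± 0.10 (adjusted p = 0.0453) was lost with DESeq2, with library totals and without the 0, 30 or 100 nM library. PCDH1 (176 to 202 CPM with BMP4, 213 untreated), PCDH18 (52.6 to 56.7, 47.8 untreated), PCDH7, PCDH11X, PCDH9, PCDH17 and PCDH20 did not pass the test. No PCDHB member passed it in either direction, with fitted changes between -0.71 and 0.68 over 13 tested.

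**Figure D5:**
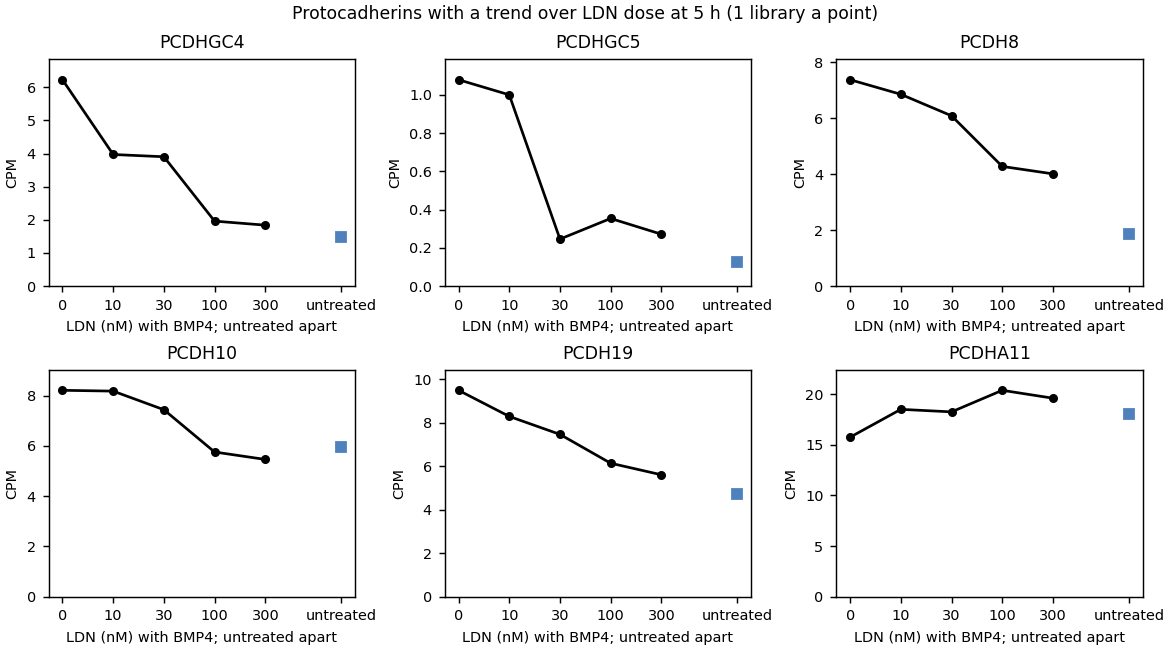
Level in CPM of the 6 protocadherins with a called trend over LDN dose at 5 h, for the 5 libraries with BMP4 (black, dose steps 0 to 300 nM, joined) and the untreated library (blue square), each axis starting at 0 and each point 1 library. PCDHGC4, PCDH8 and PCDH19 step down at every dose from 6.23, 7.38 and 9.50 CPM.

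Full BMP4 without LDN was also set against untreated cells, with 1 library each and therefore no test. On the scale of CPM adjusted by the scaling factors, a log2 ratio above 1 was found for 8 of 56 members (14.3%, against 6.6% of all features) and below -1 for 0 (3% of all features). On library totals 10 lay above 1 (17.9%, against 7.76% of all features), and with a pseudocount of 0.5 CPM in place of 0.1 CPM 3 did (5.36%, against 4.39%). PCDHGC4 stood at 179 counts at 0 nM and 23 untreated, PCDH8 at 212 and 29, PCDHGC5 at 31 and 2, PCDHA6 at 20 and 2, PCDHB4 at 50 and 11, PCDHA1 at 36 and 7, PCDHGA4 at 42 and 8, and the pseudogene PCDHA14 at 34 and 5. The untreated library had 15600931 counts in all against 28742690 at 0 nM, so these counts are not ratios of level. PCDHA14 lies wholly within annotated exons of PCDHA10, and its counts are uncertain.

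Set side by side, the early values of the time series and the dose response ran parallel for some members and not for others. PCDHGC4, PCDHGC5, PCDH8 and PCDH19, which were higher at 0 nM LDN than untreated at 5 h, were 2.42-fold, 3.68-fold, 3.77-fold and 2.67-fold above the 0 h mean at 4 h. PCDH18 was 0.414-fold of its 0 h mean at 4 h and 1.1-fold of the untreated library at 5 h. The sum over PCDHG members went from 129 and 117 CPM at 0 h to 161 CPM at 4 h. In the dose response it was 82.3 CPM at 0 nM and 76.7 CPM untreated. The members named here were picked after their values were seen. The experiments do not share libraries, but they differ in RNA selection and kit, and this difference was not tested.

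Genes that act with protocadherins were followed from lists of known partners. Of 10 genes for chromatin loops and promoter choice, 0 rose with time, against 18.7% of all features. The 2 that fell, near the 16.4% of all features, were the cohesin subunits SMC3 (log2 change -1.22) and STAG2 (-0.63). CTCF did not pass the test. With LDN, STAG2 (-0.14) and the cohesin loader NIPBL (-0.25) fell, where 9.79% of all features did. Of 10 genes that silence the clusters, 0 rose with time and 2 fell, again near the share of all features. These were the DNA methyltransferases DNMT3B (-1.53) and DNMT3A (-0.87). With LDN DNMT3B (0.75) and EHMT2 (0.18) rose, where 9.65% of all features did, and LRIF1 (-0.28) fell.
DNMT3B, which methylates these promoters early in development, had 2009 and 1999 CPM at 0 h and then 1919, 1163, 916, 730 and 638 CPM at the later times. It dropped at every time and most between 4 and 12 h.

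Of 16 cytoplasmic partners and processing genes, 4 rose with time, among them PTK2B (2.57), CYFIP1 (0.87) and ABI1 (0.77), and 5 fell, among them CDH2 (-3.08), RET (-3.02) and FZD7 (-2.79). CDH2 is N-cadherin, the partner of PCDH19, and it went from 29.8 and 31.2 CPM at 0 h to 3.17 CPM at 42 h. With LDN, FZD7 (1.14) and CDH2 (0.29) rose and the sheddase ADAM10 (-0.35) fell. Among 9 large cadherins, FAT2 (4.20) and FAT3 (1.63) rose and FAT4 (-2.58) fell with time, and DCHS2 (-1.01) and CELSR1 (-0.22) fell with LDN. The shares over all features are those given above, 18.7 and 16.4% with time and 9.65 and 9.79% with LDN.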

How the data were processed

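Bulk RNA-seq of 13 libraries of GFP::SMAD4 RUES2 cells was used. Per the study's methods and notes, the authors used Cutadapt for trimming, STAR 2.7.8a for alignment to GRCh38 and RSEM 1.3.3 for gene levels. The Ensembl release and the strand setting are not given in the sources used here. The deposited expected count tables hold whole numbers, not scaled for depth, and the deposited FPKM tables hold levels the authors scaled by length and depth. Values were checked against these units.

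Members were found by symbol and ENSG identifier and matched to GENCODE 44 (78 of 78). The members and the gene lists were chosen with earlier results of these data known. CPM was computed on library totals. Features averaging 0.5 CPM or more over an experiment were tested with edgeR 4.0.16 (R 4.3.3, quasi-likelihood test, TMM factors, Benjamini-Hochberg over all features tested, threshold 0.05). The terms were hours divided by 42, the same with its square, and LDN dose step. The 5 features that are not human were left out of tests. Untreated cells were compared with 0 nM LDN by log2(CPM + 0.1) with CPM adjusted by TMM factors, called past 2-fold without a test. Alternatives were DESeq2 1.42.0, its size factors, library totals, a filter of 1 CPM or none, limma 3.58.1 on log2(FPKM + 0.1), log time, dose in nM, a pseudocount of 0.5 CPM, and leaving out each library. Scripts were tested on simulated data. The time fit found 6% of simulated log2 changes of 1 and 65% of changes of 2. The curvature fit found 23% of simulated terms of 3 and 76% of terms of 6. The dose fit found 82% of changes of 1 and 96% of changes of 2. A member that did not pass, above all over time, is therefore not shown to be unchanged.

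Named were all non-clustered members tested, the 3 highest of each cluster, up to 4 called per cluster, direction and fit by smallest adjusted p, called pseudogenes and up to 3 called genes per partner list and direction. Other members and markers were named after their values were seen. The level of PCDH11Y is not reported. Counts of 3 correspond to 0.0421 to 0.0790 CPM in the time series and 0.0883 to 0.192 CPM in the dose response, a limit from counting error only.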

Additional observations from a re-analysis of the deposited data

How the results depend on the processing

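No member's called change turned direction under any alternative run. Rising members numbered 6 with time and 3 with library totals (4.62%, against 12.5% of all features). Falling members numbered 18 with time and 1 with log time, a share then below that of all features. Members whose positive quadratic term passed the test numbered 0, and 1 with DESeq2 and 1 without a filter. Those with a called negative term numbered 6, and 3 on FPKM with limma. With LDN 1 member rose, against 0 with library totals, 2 without a filter, 0 on FPKM with limma and 0 with dose in nM. With LDN 5 fell, against 1 on FPKM with limma and 0 with dose in nM. At 0 nM LDN against untreated, 8 lay past 2-fold, 10 on library totals and 3 with a pseudocount of 0.5 CPM. The summed levels at 42 h over 0 h moved from -0.70 to -0.43 (PCDHA), from -0.30 to -0.026 (PCDHB) and from -0.59 to -0.32 (PCDHG) on the log2 scale with TMM factors, which remove a shift of all features. The causes of the other moves were not tested. Leaving out 1 library gave 2 to 6 members rising and 2 to 27 falling with time, 0 to 1 with a called positive and 0 to 11 with a called negative quadratic term, and 0 to 2 rising and 4 to 6 falling with LDN. No paired analysis was possible because only the 0 h libraries carry replicate numbers. With 1 library at each later time and dose, low members such as PCDHGC5 and PCDHA1 rest on few counts.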
